A study of Homo sapiens with 6 samples.

Results

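The 9 genes ISCU, NFS1, HSCB, LYRM4, ISCA1, ISCA2, NFU1, GLRX5 and BOLA3, which build and deliver iron-sulfur clusters in mitochondria, were followed in Hep3B cells with and without silencing of SDHB. They were chosen by symbol, 9 of 19775 genes named on the array, and every probe set that the annotation of the Affymetrix HG-U133 Plus 2.0 array gives to one of these symbols was read, 13 of 54675 in all. All 9 genes had at least 1 probe set, and all 13 probe sets passed the filter on low signals. Each array gave a MAS5 signal per probe set, a summary of fluorescence on a linear scale that is not comparable between probe sets.

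Hep3B is a human hepatocellular carcinoma line. The control group, pU6-2, was clone 2 of cells carrying the plasmid pU6, and the other, D20, was clone D20 of cells carrying the plasmid siSDHB, described as knocked down for SDHB. Cells of both were kept in medium with G418 and harvested close to confluence, and RNA of each clone was read on 3 arrays named A, B and C, 6 arrays in all. Each group is a single clone, so silencing and clone cannot be told apart, and nothing in the labels ties the letters to separate cultures, so p-values measure the spread between arrays, which may be technical. The signal of SDHB is not analysed here, so the silencing itself was not checked. As RNA was taken from bulk cultures, fewer cells expressing a gene and less RNA per cell cannot be told apart.

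Iron-sulfur clusters are made on the scaffold protein ISCU, with sulfur that the desulfurase NFS1 takes from cysteine and with LYRM4 holding NFS1 stable. The co-chaperone HSCB then brings the loaded scaffold to the chaperone HSPA9, and the cluster passes to the glutaredoxin GLRX5. ISCA1 and ISCA2 serve the making of the larger, cubane clusters, and NFU1 and BOLA3 hand clusters to particular proteins such as lipoyl synthase. SDHB, the target of the silencing, is itself an iron-sulfur protein.

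The arrays were scaled alike, with trimmed means of at least 500.059 and at most 500.065. The 3' to 5' signal ratio of the GAPDH control was 1.08 to 1.15 in pU6-2 and 1.11 to 1.25 in D20, and that of beta-actin 1.42 to 1.90 and 1.40 to 1.68, so the clones overlapped. Markers of the labelled and of other cell types were read as the sum of 1 probe set a gene, which its brightest members dominate, and gene by gene. The 11 hepatocyte markers measured were above the filter signal of 43.2 in both clones. Their summed signal was 331641 to 342359 in pU6-2 and 148557 to 170794 in D20. By gene 9 fell, 1 rose and 1 did not pass (limma, adjusted p below 0.05). The sums took each gene's brightest probe set, while these calls took a dimmer one for some genes. ALB was called lower by 1 of its 4 tested probe sets, and 1 other was called higher. The sum of 7 fibroblast markers was 465 to 666 in pU6-2 and 3661 to 4527 in D20, and COL1A1 made up most of the latter. COL1A1 was below the filter signal in pU6-2 and had a mean of 3780.03 in D20, while LUM fell, the 4 other tested markers did not pass, COL3A1 was below the filter in both clones and DCN and LUM were below it in D20. The sum of 5 blood markers was 342 to 461 and 813 to 826, and LAPTM5 alone rose (from a mean of 74.7 to 612), while CD14 (-0.67) and HBB (-0.85 on the log2 scale) did not pass and PTPRC and CD3E were below the filter in both clones. The sum of 4 endothelial markers was 102 to 172 and 244 to 324, where PECAM1 rose and VWF, CDH5 and KDR were below the filter in both. The 3 biliary markers summed to 7641 to 8688 and 6419 to 6637, with SOX9 lower (-0.65), KRT19 higher (0.39) and KRT7 not passing (-0.28). The part of these differences in the results that follow was not tested.

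In clone D20, transcripts of 4 of the 9 genes were lower: the scaffold ISCU, the co-chaperone HSCB, the glutaredoxin GLRX5 and ISCA1, the last by each of its 3 probe sets. Their mean signals in D20 were between 44.4% (HSCB) and 71.1% (1 probe set of ISCA1) of those in pU6-2. NFS1, LYRM4, ISCA2, NFU1 and BOLA3 did not pass the test in either direction. Counted by probe set, 6 of 13 fell and 0 rose, where 36.5% of the 32768 probe sets tested were called in either direction, 17.0% lower and 19.5% higher (limma, Benjamini-Hochberg adjusted p below 0.05). Counted by gene, each by its brightest probe set with those free of a cross-matching suffix taken first, 4 of 9 fell and 0 rose, against 42.0% of 13781 genes called, 19.6% lower and 22.4% higher. Over pU6-2, the median log2 ratio of D20 was -0.14 over the 13 probe sets and 0.03 over all probe sets tested. With the arrays of the clones compared directly, 7 of the 13 probe sets had no overlap between clones, against 47.2% of all probe sets tested.

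**Figure D1:**
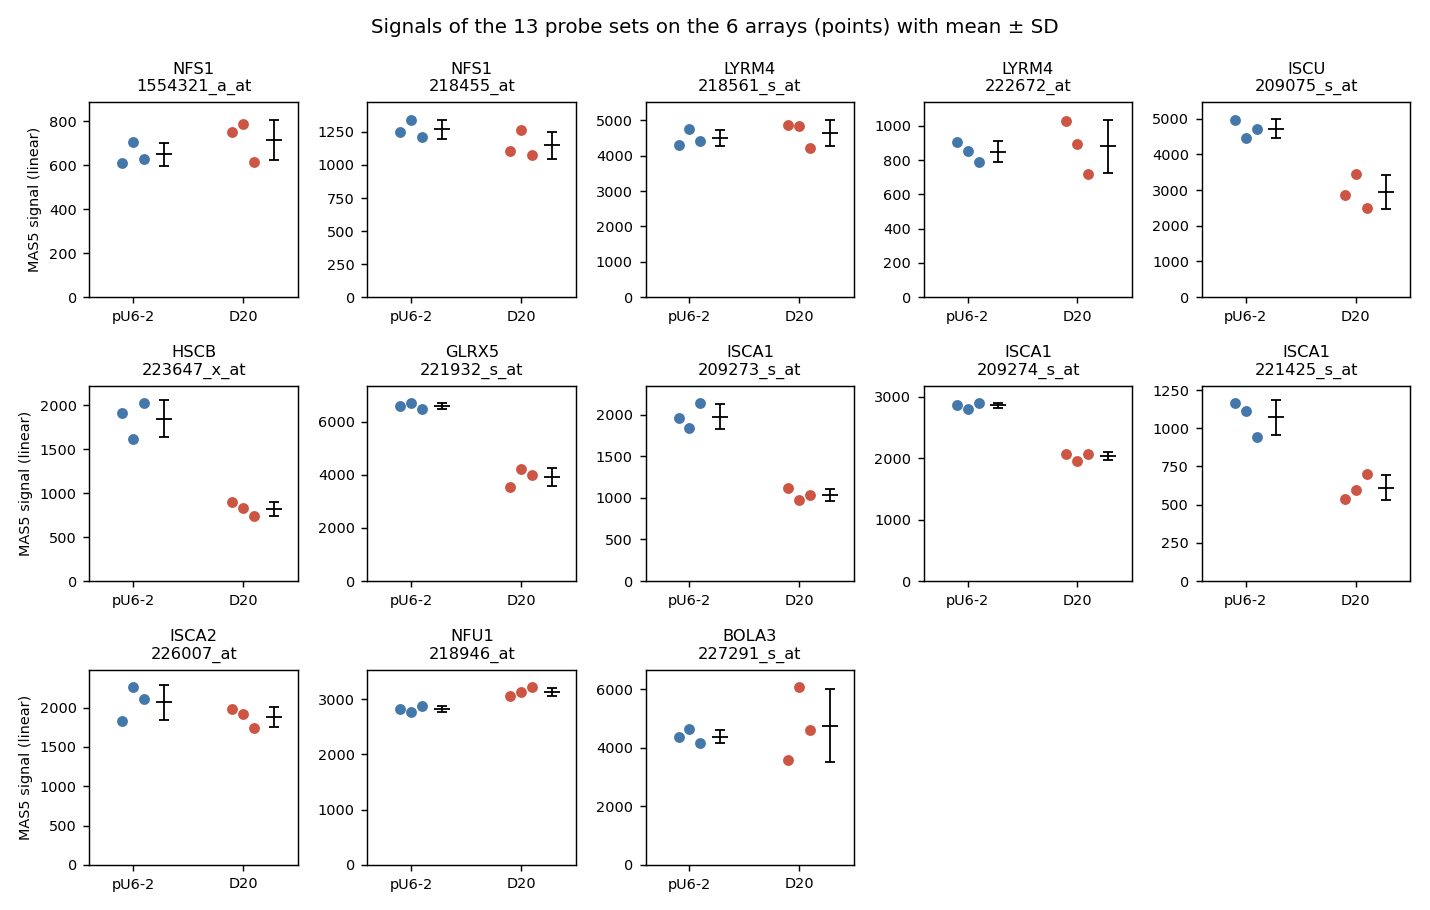
MAS5 signal (linear axis from 0) of each of the 13 probe sets on the 3 pU6-2 arrays (blue) and the 3 D20 arrays (red), with the mean and SD of each clone in black; panels have their own scales. The 6 probe sets of ISCU, HSCB, GLRX5 and ISCA1 lie wholly lower in D20, and the single NFU1 probe set lies slightly higher there.

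The desulfurase and scaffold step came first in the pathway and moved unevenly. ISCU (209075_s_at) had signals of 4972, 4449 and 4719 on arrays A, B and C of pU6-2 and of 2873, 3446 and 2502 on those of D20. Every D20 array lay below every control array, with means of 4713 ± 261 (SD, n = 3) and 2940.2 ± 475 (SD, n = 3). The log2 fold change was -0.69 ± 0.11 (SE), a D20 mean at 62.4% of control (limma, adjusted p = 3.5e-04).

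NFS1 was read by 2 probe sets whose estimates lay on opposite sides of 0. Probe set 218455_at gave 1252, 1343 and 1209 in pU6-2 and 1107, 1263 and 1076 in D20. Its arrays overlapped between clones, with a log2 fold change of -0.14 and a 95% interval from -0.39 to 0.10 (limma, adjusted p = 0.36). Probe set 1554321_a_at gave 611, 707 and 631 in pU6-2 and 752, 786 and 614 in D20, again overlapping. Its log2 fold change was 0.13 with an interval from -0.18 to 0.45 (limma, adjusted p = 0.51). Neither interval reached the size of the ISCU difference.

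LYRM4, the small partner protein of NFS1, also had 2 probe sets. Its probe set 218561_s_at gave 4315, 4750.3 and 4409 in pU6-2 and 4882, 4848 and 4223 in D20. Its probe set 222672_at gave 909, 856 and 786 against 1029.5, 894 and 717. The clones overlapped in both, and the log2 fold changes were 0.05 (95% interval -0.15 to 0.24) and 0.04 (-0.28 to 0.35). The limma adjusted p was 0.72 and 0.88 in that order.

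Of the transfer step, both genes were lower in D20. HSCB, whose product carries the J domain that stimulates HSPA9, was read by 223647_x_at and had signals of 1908, 1617 and 2021 in pU6-2 and of 897, 826 and 737 in D20. The lowest control array stood well above the highest D20 array, and the SD was 208 and 80.2 (n = 3 each) around means of 1849 and 820.3. The log2 fold change of -1.16 ± 0.12 (SE) was the largest among the 13 probe sets (limma, adjusted p = 1.1e-05). It lay at percentile 5.23 of the log2 fold changes of all probe sets tested, counted from the most negative.

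GLRX5, the mitochondrial glutaredoxin that takes the cluster from the chaperone complex, was read by 221932_s_at and had signals of 6591, 6681 and 6465 in pU6-2 and of 3550.5, 4204 and 3999.8 in D20. The control arrays were close together (SD 108, n = 3) and the D20 arrays more spread (SD 334, n = 3), with no overlap. The D20 mean was 59.6% of control, and the log2 fold change was -0.75 ± 0.09 (SE; limma, adjusted p = 2.0e-05).

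Of the late-acting genes, ISCA1 fell and its partner ISCA2 did not pass the test. Probe set 209273_s_at of ISCA1 gave 1956, 1833 and 2134 in pU6-2 and 1115, 973 and 1029 in D20, which amounts to -0.92 ± 0.11 (SE) in log2 units. Probe set 209274_s_at gave 2871, 2805 and 2888 against 2074, 1955 and 2064, a change of -0.49 ± 0.09 (SE). Probe set 221425_s_at gave 1162, 1109.5 and 942 against 539, 598 and 699, a change of -0.79 ± 0.14 (SE). All 3 separated the clones without overlap, with limma adjusted p-values of 2.6e-05, 7.5e-04 and 7.0e-04 in that order. The size differed between them, from 52.6% to 71.1% of the control mean.

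ISCA2, which pairs with ISCA1, was read by 226007_at and had signals of 1825, 2259 and 2116 in pU6-2 and of 1981, 1921 and 1736 in D20. The control array A lay inside the D20 range, and the log2 fold change was -0.13 with a 95% interval from -0.37 to 0.10 (limma, adjusted p = 0.38). NFU1 (218946_at), a late carrier of clusters, had 2828, 2757 and 2877 in pU6-2 and 3061, 3121 and 3212.5 in D20. Its D20 arrays all lay above the control arrays, yet the log2 fold change of 0.15 ± 0.08 (SE) did not pass the test (limma, adjusted p = 0.19; interval -0.03 to 0.33). BOLA3 (227291_s_at), which works beside NFU1, had 4374.5, 4633 and 4161 in pU6-2 and 3604, 6076 and 4604 in D20. The D20 arrays of BOLA3 spread widely (SD 1244, n = 3) around those of the control, with a log2 fold change of 0.09 and an interval from -0.23 to 0.40 (limma, adjusted p = 0.70).

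**Figure D2:**
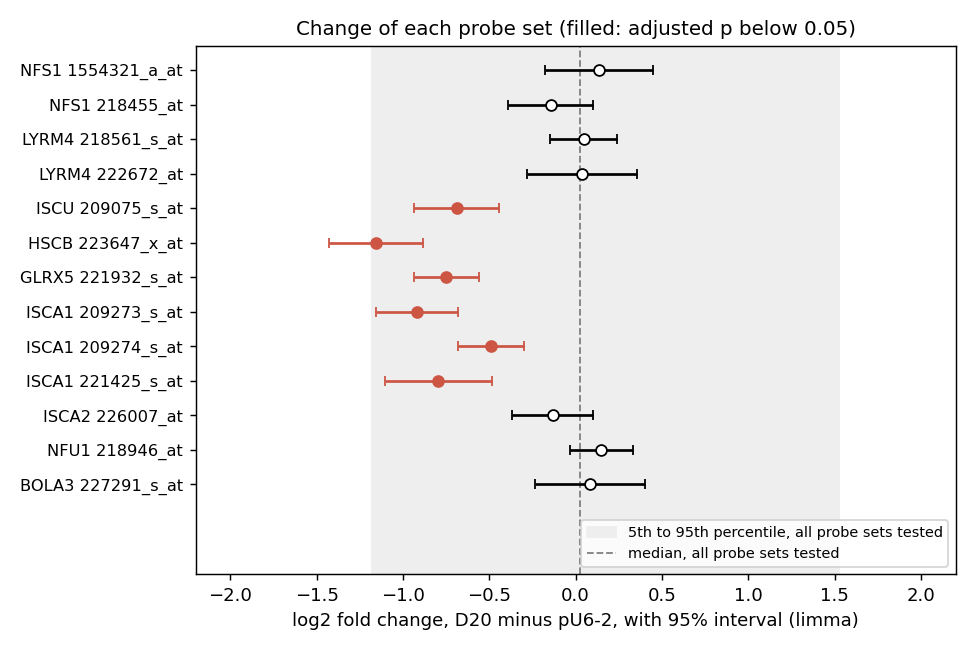
Log2 fold change of D20 over pU6-2 with its 95% interval from limma for each of the 13 probe sets, ordered by step of the pathway; filled red points have an adjusted p below 0.05, the grey band spans the 5th to the 95th percentile of all probe sets tested (-1.18 to 1.53) and the dashed line is their median. The 6 intervals of ISCU, HSCB, GLRX5 and ISCA1 lie wholly below 0 and the other 7 include it.

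Since an array's overall brightness cancels in the ratio of 2 genes on it, every pair of the 9 genes was compared by its log2 ratio on each array, with a gene's probe sets averaged. In each of the 20 pairs made of a gene that fell and one that did not pass the test, the ratios of pU6-2 and of D20 did not overlap. The differences in log2 fold change in these pairs ran from 0.56 (ISCU and ISCA2) to 1.31 (HSCB and NFU1) in size. For ISCA1 over ISCA2 the difference was -0.60 ± 0.14 (SE), for ISCU over NFS1 -0.68 ± 0.11, and for GLRX5 over BOLA3 -0.83 ± 0.15. Of the 10 pairs among the 5 genes that did not pass, 0 separated, and of the 6 pairs among the 4 that fell, 2 did, ISCU over HSCB differing by 0.47 and HSCB over ISCA1 by -0.42. A two-sided exact permutation test of 3 arrays against 3 gave its smallest possible p of 0.1 for each pair that separated, or 0.16 after Benjamini-Hochberg adjustment over the 36 pairs, so this test could not pass the threshold. The groups of 4 and 5 genes were formed on the same signals, so the count of 20 is no separate support for the calls. Pairs of other genes on the array were not compared, and 47.2% of single probe sets tested had no overlap between clones.

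The suffix of a probe set tells whether its probes may match more than 1 transcript, and it divided the 13 probe sets. The 6 that fell carry the suffix _s_at (5) or _x_at (1), which mark probes shared between transcripts or similar to others. Of the 9 member probe sets with _s_at, _x_at or _a_at 6 fell, while 18.1% of the 12487 such probe sets tested were lower. Of the 4 without a suffix, 0 fell, while 16.2% of the 20281 such probe sets were lower. None of the 4 genes that fell, ISCU, HSCB, GLRX5 and ISCA1, had a probe set free of such a suffix, so what other transcripts add to their signals was not tested. LYRM4 and NFS1 had 1 probe set of each kind, and neither kind passed the test.

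Spike-in scaling and median centring moved the values of an array nearly together, while quantile normalization moved probe sets unevenly. With quantile normalization ISCU went from -0.69 to -0.63 and NFS1 1554321_a_at from 0.13 to 0.06. Scaled on 24 poly-A spike-in probe sets, the median over every probe set tested went from 0.03 to 0.23 and the share of calls that were higher from 53.5% to 72.5%, or to 42.0% with each array centred on its median. On the spike-in scale 5 of the 6 probe sets stayed lower, with HSCB at -0.94, ISCU at -0.48, GLRX5 at -0.54 and the ISCA1 probe sets 209273_s_at and 221425_s_at at -0.70 and -0.58. ISCA1 209274_s_at was then at -0.28 and did not pass (limma, adjusted p = 0.066). NFU1 passed as higher there, at 0.36 (limma, adjusted p = 0.015). With quantile normalization and with median centring all 6 passed as lower and none of the others passed. Directions of NFS1 218455_at and ISCA2 turned to higher with spike-in scaling, those of LYRM4 222672_at to lower with quantile normalization, and those of both LYRM4 probe sets and BOLA3 to lower with median centring, none of them passing the test.

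**Figure D3:**
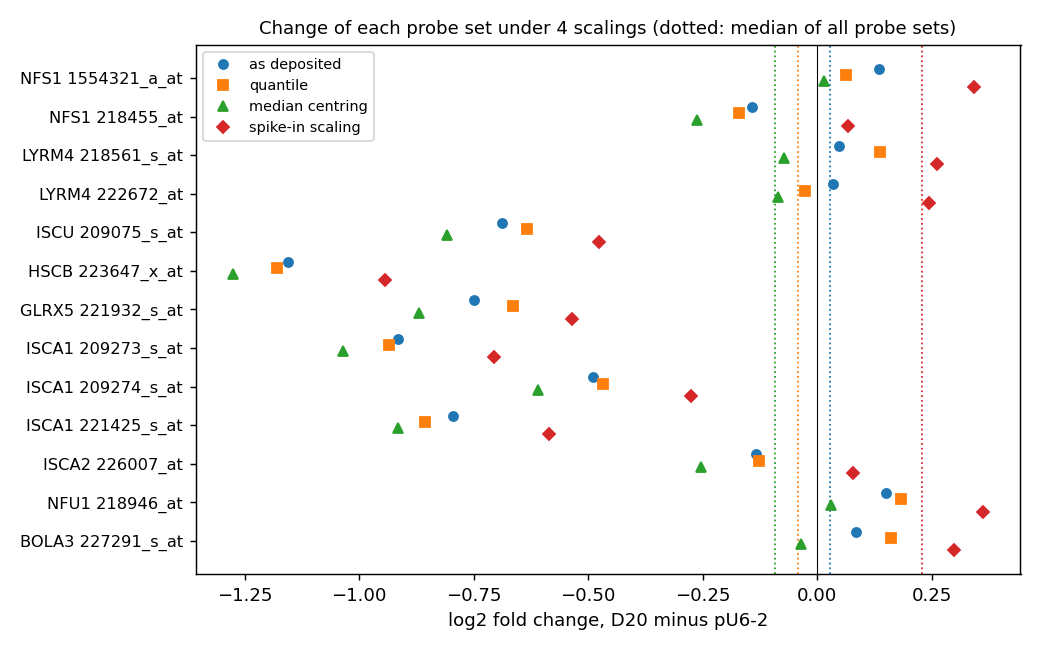
Log2 fold change of D20 over pU6-2 of each of the 13 probe sets with the signals as deposited, after quantile normalization, after median centring and after scaling on spike-in controls; dotted lines give the median of all probe sets tested in the same colours. The 6 probe sets of ISCU, HSCB, GLRX5 and ISCA1 lie below the median of all probe sets in each of the 4 scalings.

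The 10 tested genes on each side of each member, in RefSeq order, were read in the same fit. Around ISCU 9 of 20 neighbours fell and 2 rose, and their log2 fold changes had a median of -0.42, against -0.69 for ISCU itself. Around HSCB 7 fell and 4 rose with a median of -0.12, against -1.16 for HSCB. GLRX5 and ISCA1 lay among neighbours with medians of 0.28 and 0.25, of which 6 fell and 3 rose around GLRX5 and 4 fell and 5 rose around ISCA1. The medians around the other 5 genes ran from -0.09 (NFU1) to 0.27 (BOLA3). HSCB starts head to head with CHEK2, a checkpoint kinase gene, which was also lower, at -0.45 ± 0.12 (SE; limma, adjusted p = 0.012). BOLA3 is head to head with the transcript BOLA3-DT, at 2.80 ± 0.50 (SE; limma, adjusted p = 6.6e-04), and the BOLA3 probe set stood at 0.09 beside it. NFS1, LYRM4 and ISCA2 lie head to head with ROMO1 (0.02), FARS2 (0.10) and NPC2 (0.11), none of which passed the test. GLRX5 lies head to head with SNHG10, which was not tested.

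The promoters of the 4 genes that fell are shown because their transcripts were lower in the same clone. Each sequence is the 250 bases before the first start site that the RefSeq promoter table gives for the gene, on build GRCh38.p14, read 5′ to 3′ along the gene's strand. They lie at chr12:108562346-108562595 (+ strand), chr22:28741789-28742038 (+ strand), chr14:95534800-95535049 (+ strand) and chr9:86282539-86282788 (- strand). Capitals mark CCAAT on either strand (ATTGG), the letters that NF-Y binds, and in ISCU a match to GCGCANGC, the core of the NRF1 motif.
ISCU: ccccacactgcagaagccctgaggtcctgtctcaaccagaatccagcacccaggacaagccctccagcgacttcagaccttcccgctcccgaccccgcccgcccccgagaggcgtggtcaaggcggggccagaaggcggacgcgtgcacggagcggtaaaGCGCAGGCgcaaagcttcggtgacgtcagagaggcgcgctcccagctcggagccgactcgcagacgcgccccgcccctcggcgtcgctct
HSCB: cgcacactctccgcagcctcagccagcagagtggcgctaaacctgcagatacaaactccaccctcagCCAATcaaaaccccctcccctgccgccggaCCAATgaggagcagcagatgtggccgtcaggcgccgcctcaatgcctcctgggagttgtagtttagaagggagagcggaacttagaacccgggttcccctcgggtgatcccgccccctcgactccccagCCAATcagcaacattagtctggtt
GLRX5: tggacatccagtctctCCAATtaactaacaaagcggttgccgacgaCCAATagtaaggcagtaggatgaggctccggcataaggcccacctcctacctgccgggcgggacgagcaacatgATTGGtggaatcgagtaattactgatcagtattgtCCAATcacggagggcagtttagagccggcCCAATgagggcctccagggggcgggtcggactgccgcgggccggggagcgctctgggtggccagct
ISCA1: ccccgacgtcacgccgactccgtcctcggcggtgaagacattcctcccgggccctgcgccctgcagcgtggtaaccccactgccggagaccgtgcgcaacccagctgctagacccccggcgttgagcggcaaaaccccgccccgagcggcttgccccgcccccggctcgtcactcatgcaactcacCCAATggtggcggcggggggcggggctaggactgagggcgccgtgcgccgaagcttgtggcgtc

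The table held a promoter for all 9 members, and 7 motifs were searched on both strands in these 250 bases. CCAAT was found 5 times in GLRX5, 3 times in HSCB and 1 time in ISCA1, and ISCU had none. These counts are for the first start site, and the 250 bases before start site 3 of HSCB held no CCAAT. Of the 5 other genes only ISCA2 held it, with 2 matches. Among 27305 promoters of this length 33.0% held CCAAT, and among those of the 11112 tested genes 34.9%. GGGCGG, the GC box bound by Sp factors, was present at the first start site of all 9 members, though not at start site 2 of NFU1. It was present in 64.8% of the promoters of tested genes. GCGCANGC was found in ISCU alone (18.1% of tested genes), CCGGAAG, an ETS site, in NFS1 alone (15%), and TGACNNNGC, the antioxidant element, in ISCU alone (12%). CACGTG (8.7%) and TATAAA (5.9%) were found in none of the 9. GC content was 69.6% in ISCU, 60.4% in HSCB, 59.2% in GLRX5 and 72.0% in ISCA1, against a median of 58.0% over all 27305 promoters. The median over tested genes alone was not computed, and GGGCGG was in 64.8% of their promoters against 42.3% of all. In the 5 other genes GC content ran from 63.6% (NFU1) to 77.6% (BOLA3), so a high GC content was not particular to the genes that fell. These are matches of letters and not measured binding.

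The direct partners of the 9 proteins were read from a list of 14 genes, of which 11 were tested. Of these 4 fell and 1 rose, where 19.6% of all genes were lower and 22.4% higher, and the median log2 fold change was -0.29, against 0.04 over all genes; with spike-in scaling 3 fell and 2 rose. NDUFAB1, the mitochondrial acyl carrier protein that binds LYRM4, fell from 12091 ± 869 to 7135 ± 611 (SD, n = 3 each), by 0.76 on the log2 scale. GRPEL1, the nucleotide exchange factor of HSPA9, fell by 0.64, but only by 1 of its 2 probe sets. IBA57, which acts with the ISCA proteins, fell by 0.75 by 1 of 4 probe sets. IBA57 did not pass with spike-in scaling (-0.55), nor without array A (-0.74) or C (-0.68) of pU6-2 or array B of D20 (-0.53). FDX2, the ferredoxin that feeds electrons to the scaffold, rose: its signals were 732, 727 and 721 in pU6-2 and 1158, 1243 and 1199 in D20. The control arrays of FDX2 were nearly alike and all lay below those of D20, a log2 fold change of 0.71 ± 0.11 (SE; limma, adjusted p = 2.9e-04).

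HSPA9, the chaperone to which HSCB delivers ISCU, gave unequal answers by probe set. Probe set 200690_at gave 2020.4, 1816 and 1961 in pU6-2 and 1147, 1204 and 1303 in D20, or -0.66 in log2 units (limma, adjusted p = 2.7e-04). Probe set 200691_s_at was at -0.13 and 200692_s_at at -0.20, and neither passed (limma, adjusted p = 0.31 and 0.070). FDX1, the ferredoxin of steroid and lipoyl synthesis, was likewise called lower by 2 of 3 probe sets, 203647_s_at at -0.82 and 239161_at at -0.69. The remaining one, 203646_at, which stood for the gene in the counts, gave -0.33 (limma, adjusted p = 0.13).

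Cytosolic assembly genes and the proteins that receive clusters are read against the background shares for genes given above. Of 10 cytosolic assembly genes 2 fell and 0 rose, near the 19.6% of all genes that were lower. The median was -0.28, but with spike-in scaling 1 fell and 2 rose. Read by the brightest probe set whatever its suffix, 1 fell and the median was -0.11. CIAPIN1, an electron carrier of that pathway, fell by 0.44, with its other probe set lower too, and did not pass with spike-in scaling. CIAO1, of the targeting complex, fell by 0.75 in 1 of 3 probe sets, with 203536_s_at at -0.12, and did not pass without array C of pU6-2 (-0.61) or with no variance trend in the fit. Of 11 mitochondrial cluster proteins 4 fell and 0 rose, with a median of -0.33: MOCS1 (-0.89, by 1 of 2 probe sets), which starts molybdenum cofactor synthesis, the complex I subunit NDUFV1 (-0.81), the lipoyl synthase LIAS (-0.43) and CISD1 (-0.33). LIAS and CISD1 did not pass with spike-in scaling, where 2 genes of this list fell. Read by the brightest probe set whatever its suffix, 6 of the list fell and 1 rose. LIAS also did not pass without array A (-0.42) or C (-0.45) of pU6-2 or C of D20 (-0.38), nor CISD1 without any 1 of 5 arrays, pU6-2 A or B or D20 A, B or C (-0.35 to -0.25). CISD1 did not pass either with no filter on low signals or with no variance trend.

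Of 17 cytosolic and nuclear cluster proteins 6 fell and 1 rose, with a median of -0.28, and with spike-in scaling 3 fell and 2 rose. DPYD, which degrades pyrimidines, had signals of 702, 484 and 684 in pU6-2 and 118, 51.7 and 145 in D20, a change of -2.48 ± 0.31 (SE; limma, adjusted p = 3.5e-05). The other probe set of DPYD was at 0.34 and did not pass. ACO1, the cytosolic aconitase that without its cluster binds iron-responsive RNA elements, had 1958.5, 2128 and 2222 in pU6-2 and 623, 573 and 791 in D20. Every D20 array of ACO1 lay far under the control arrays, with a change of -1.65 ± 0.13 (SE; limma, adjusted p = 7.8e-07). DDX11, a DNA helicase, fell by 0.67 (2 of its 4 probe sets were lower and 1 stood at 0.42 without passing), and NTHL1, a base excision glycosylase, by 0.53. NTHL1 did not pass with spike-in scaling (-0.33), nor with no variance trend in the fit, nor without any 1 of 5 arrays, pU6-2 A, B or C or D20 A or C (-0.56 to -0.44).

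NFU1 and BOLA3 serve lipoyl synthesis, and 6 genes of lipoyl transfer and lipoylated proteins were tested. Of these 2 fell and 1 rose, where 19.6% of all genes were lower and 22.4% higher. The median log2 fold change of the 6 was 0.006, against 0.04 over all genes. It was -0.12 by the brightest probe set whatever its suffix. With quantile normalization it was -0.08, with median centring -0.11 and with spike-in scaling 0.21. The medians over all probe sets tested were then -0.04, -0.09 and 0.23 in that order. PDHX, of the pyruvate dehydrogenase complex, fell by 0.98. GCSH, the lipoylated protein of glycine cleavage, had 10266, 10044 and 10218 in pU6-2 and 5128.5, 5263 and 5900.0 in D20, a change of -0.91 ± 0.08 (SE; limma, adjusted p = 2.0e-06). Its other probe set gave -1.17. DLST, of the oxoglutarate dehydrogenase complex, was higher by 0.33 ± 0.11 (SE), and did not pass with median centring (0.21), nor without any 1 array of pU6-2 (0.30 to 0.36) or array B of D20 (0.21). It also did not pass with no filter on low signals or with no variance trend in the fit. With spike-in scaling 2 of these 6 genes fell and 2 rose.

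**Figure D4:**
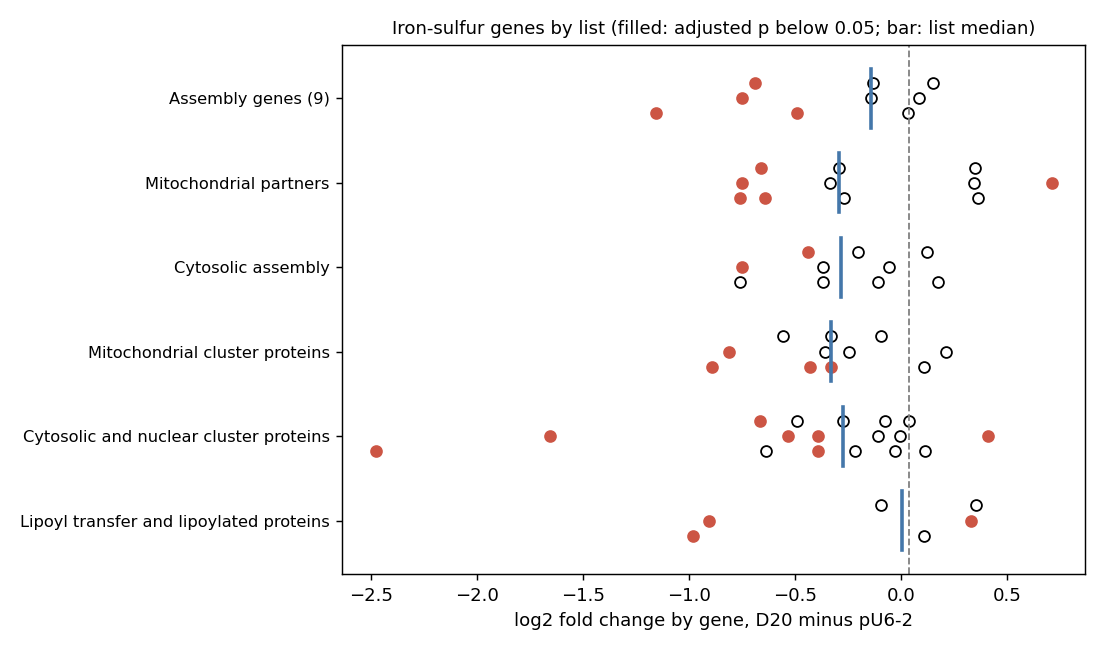
Log2 fold change of D20 over pU6-2 for each tested gene (one point per gene, its representative probe set) of the 9 assembly genes and of 5 lists of related genes; filled points have an adjusted p below 0.05 (limma, Benjamini-Hochberg), blue bars are list medians and the dashed line is the median of all genes (0.04). In each list more genes fell than rose at the deposited scale, where 19.6% of all genes were lower and 22.4% higher. Cytosolic assembly, with 2 of 10 lower, was near that share. The lipoyl list had a median of 0.006, or -0.12 by the brightest probe set whatever its suffix. With spike-in scaling cytosolic assembly had 1 lower and 2 higher and the lipoyl list 2 of each. FDX2 (0.71) is the point farthest to the right.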

How the data were processed

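RNA of 2 Hep3B clones was read on 6 arrays. The deposited intensity of each probe set, linear and not logged, was made with MAS5 per the submitters' processing notes, with version and scaling target not given in the sources used here. Probe sets were named by the platform annotation, updated by Entrez identifier to RefSeq symbols (GRCh38.p14): 41091 had 1 symbol, 1801 several and 11721 none. Of the lists, genes with no singly named probe set are not analysed here.

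Signals were taken as log2(signal + 16), which understates changes of dim genes. The 62 control probe sets and the 40% with the lowest mean were left out. The comparison was fitted with limma 3.58.1 in R 4.3.3 (lmFit, eBayes with a trend, all 6 arrays, no covariate), two-sided, with Benjamini-Hochberg adjustment over 32768 probe sets, and tested on simulated data. Genes outside the members were named if direct partners or among the 4 largest called changes of their list; GRPEL1 and the head-to-head genes were added after their values were seen. Members and lists were chosen with earlier results of these data known. Same-letter arrays did not deviate together (r = -0.02, 0.05 and 0.007), so the letters were not used to pair arrays.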

Additional observations from a re-analysis of the deposited data

How the results depend on the processing

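The count of 6 probe sets lower was the same with pseudocounts of 1 and 64, with no filter or 60% left out, with quantile normalization, median centring, no variance trend, the replicate block (6 lower, 0 higher) and without any 1 array. With spike-in scaling 5 were lower and 1 higher, and without cross-matching probe sets 0 of the remaining 4 were lower, since all 6 carry such a suffix. Among the 195 member values under these alternatives 9 turned direction, all in probe sets that passed in neither setting. They were LYRM4 222672_at at -0.027 with quantile normalization and -0.084 with median centring, LYRM4 218561_s_at at -0.072 and BOLA3 at -0.034 with median centring, and NFS1 218455_at at 0.068 and ISCA2 at 0.080 with spike-in scaling. Leaving out 1 array, LYRM4 222672_at ran from -0.084 to 0.17 and BOLA3 from -0.11 to 0.27. In the fit with letters as a replicate block no call of a member changed. With no filter ACO1 (-1.04) and MOCS1 (-0.41) were read by another probe set and did not pass. Of 323 values of other named genes, 40 no longer passed, 2 newly passed and 0 turned direction; the choice of probe set took HSPA9 to -0.13 and CIAO1 to -0.12 with the brightest whatever its suffix (an alternative chosen after seeing the data), and FDX1 to -0.82. The 4 genes falling among 11 mitochondrial cluster proteins became 2 to 8 across the alternatives. With 3 arrays a clone, the 95% intervals of the 7 probe sets that did not pass ended between -0.39 and -0.03 below and between 0.10 and 0.45 above, so changes within them could not be seen.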
